A study of Drosophila melanogaster with 3 samples.

Results

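The transcripts described here are those of the mitochondrial genome of Drosophila melanogaster, in 3 types of visual projection neurons of the developing pupal brain. They were chosen by the prefix mt: of their symbols, which 38 of the 17824 genes in the deposited count tables carry. The 38 genes comprise 13 mRNAs, 2 rRNAs, 22 tRNAs and mt:ori, the control region. Measured molecules were counted as unique molecular identifiers (UMIs), 1 for each captured RNA molecule, by 3′ single-cell RNA-seq of GFP-sorted LPLC2, LPLC1 and LC4 neurons at 48, 72 and 96 h after puparium formation (APF).

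Each biological replicate was 1 cross of virgin females carrying the split-GAL4 driver line of a cell type with males carrying a nuclear GFP reporter. The males also brought the third chromosome that was particular to 1 line of the DGRP (Drosophila Genetic Reference Panel), a collection of sequenced wild-type lines. LPLC2 and LPLC1 were each represented by 6 crosses at every stage. LC4 was represented by 6 crosses at 48 h APF and by 4 at 72 and 96 h APF. At 48 h APF the strains were DGRP-399, DGRP-535, DGRP-555, DGRP-730, DGRP-799 and DGRP-805, and at 72 and 96 h APF DGRP-320 took the place of DGRP-555. The LC4 crosses of 72 and 96 h APF were those with DGRP-399, DGRP-535, DGRP-799 and DGRP-805. All crosses of a stage shared 1 library on 1 lane, so stage and lane cannot be told apart. The library of 48 h APF was also sequenced with other read lengths. Mitochondria pass through the mother, so every cross of a driver line received its mitochondrial genome from that line, and a difference between cell types cannot be told apart from one between driver lines. Within a cross, cells came from pooled animals.

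The mitochondrial genome encodes a small set of subunits of the respiratory chain and the RNAs needed to translate them. Its 2 rRNAs, mt:lrRNA and mt:srRNA, belong to the large and the small subunit of the mitochondrial ribosome. Of its mRNAs, 7 (mt:ND1 to mt:ND6 and mt:ND4L) encode subunits of complex I, mt:Cyt-b a subunit of complex III, mt:CoI, mt:CoII and mt:CoIII subunits of complex IV, and mt:ATPase6 and mt:ATPase8 subunits of the ATP synthase. Both strands are transcribed into long precursors that are cut at the tRNAs between the coding sequences, so the level of a mature transcript reflects its processing and stability as well as transcription. Neurons rely on oxidative phosphorylation, which needs these subunits in a fixed ratio with those encoded in the nucleus.

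In all, 3083007 of the 115427075 UMIs in 5630 cells and 50 crosses came from the 38 genes. The large rRNA dominated them. mt:lrRNA (bases 12735 to 14058 of the mitochondrial chromosome in Release 6 of the genome, minus strand) held 72.3% of these UMIs, and the 13 mRNAs together held 25.7%. Among the mRNAs, mt:CoI (bases 1474 to 3009, plus strand) held 5.21%, mt:CoIII (bases 4736 to 5524, plus strand) 5.17%, mt:CoII (bases 3083 to 3767, plus strand) 4.45%, mt:ATPase6 (bases 4062 to 4736, plus strand) 3.31% and mt:Cyt-b (bases 10499 to 11635, plus strand) 2.27%. mt:srRNA (bases 14131 to 14916, minus strand), the partner of mt:lrRNA in the ribosome, held only 1.96%. Relative to gene length, mt:lrRNA stood at 14595 UMIs per kb and 1000000 UMIs, against 1750 for mt:CoIII, 1735 for mt:CoII, 1310 for mt:ATPase6, 906 for mt:CoI and 665 for mt:srRNA. These are values of captured 3′ ends, and capture by a poly(A) tail need not be equal between transcripts.

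The subunits of complex I were lower and spread more widely. mt:ND3 (bases 5608 to 5961, plus strand) reached 473 UMIs per kb and 1000000 UMIs and mt:ND1 (bases 11721 to 12659, minus strand) 434, while mt:ND6 (bases 9971 to 10495, plus strand) had 254, mt:ND5 (bases 6409 to 8125, minus strand) 176, mt:ND4 (bases 8207 to 9545, minus strand) 170 and mt:ND2 (bases 240 to 1263, plus strand) 145. The lowest mRNAs were mt:ATPase8 (bases 3907 to 4068, plus strand) at 54.3 and mt:ND4L (bases 9545 to 9835, minus strand) at 14.2 UMIs per kb and 1000000 UMIs. mt:ATPase8 overlaps mt:ATPase6, and mt:ND4L adjoins mt:ND4. Each pair lies on a shared transcript, so 3′ counts cannot be split between its members with certainty. Of the mRNA genes, 9 lie on the plus strand and 4 (mt:ND1, mt:ND4, mt:ND4L and mt:ND5) on the minus strand, together with both rRNAs.

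The tRNAs, which carry amino acids to the ribosome and lack a long poly(A) tail, were nearly absent from the libraries. All 22 had at least 1 UMI, but together they held 1273 UMIs, or 0.0413% of the UMIs of the 38 genes. Only 3 passed the filter on low counts that precedes the test, namely mt:tRNA:Ala-TGC with 285 UMIs, mt:tRNA:Arg-TCG with 120 and mt:tRNA:Ser-GCT with 321. These 3 genes lie in the cluster of tRNAs between mt:ND3 and mt:ND5 (bases 5983 to 6047, 6062 to 6124 and 6191 to 6258, plus strand). The other 19 had at most 182 UMIs, the value of mt:tRNA:Val-TAC, which lies between the 2 rRNA genes. mt:ori had 0 UMIs, where a count of 0 allows for up to 3. With all 13 mRNAs and both rRNAs, 18 of the 38 genes entered the test.

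The libraries were deep enough for these genes in every cross. Total UMIs per cross ranged from 247008 to 7025942 and those of the 38 genes from 8384 to 174706, with 12 to 363 cells per cross. The cell type labels were checked against their markers. kn, a transcription factor that marks LC4, averaged 11.5, 4.92 and 7.88 UMIs per 10000 in LC4 at 48, 72 and 96 h APF and at most 0.0360 elsewhere. br marked LPLC1 against LPLC2 (40.4 to 49.2 against 0.0985 to 0.268 UMIs per 10000) but was also present in LC4, and Lim1 marked LPLC2 and LPLC1 against LC4. In group means, the glial marker repo was at most 0.00685 UMIs per 10000, the haemocyte markers Hml and NimC1 were at most 0.000863, and pairs of libraries shared 1 to 7 barcodes. The sum of 5 glial markers, nearly all of it nrv2, at 48 h APF was 1.63 to 2.20 UMIs per 10000 for LPLC2, 1.11 to 1.55 for LPLC1 and 0.161 to 0.330 for LC4, and lay between 0.312 and 0.773 in all 3 types later. Its part in the differences below was not tested.

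The mean share of UMIs from the mitochondrial genome was lowest in LC4 at 72 h APF (2.18% ± 0.0774, SD, n = 4) and highest in LPLC1 at 96 h APF (3.73% ± 0.203, n = 6). In LPLC2 it was 2.76%, 2.89%, 2.99%, 2.67%, 2.57% and 2.79% in the crosses with DGRP-399, DGRP-535, DGRP-555, DGRP-730, DGRP-799 and DGRP-805 at 48 h APF, 2.39% to 2.99% (median 2.72%) at 72 h APF and 3.001% to 3.39% (median 3.21%) at 96 h APF. In LPLC1 it was 2.33% to 2.48% (median 2.40%) at 48 h APF, 2.39% to 2.74% (median 2.56%) at 72 h APF and 3.47% to 4.04% (median 3.69%) at 96 h APF. In LC4 it was 2.38% to 2.80% (median 2.69%) at 48 h APF, then 2.18%, 2.21%, 2.26% and 2.07% in the crosses with DGRP-399, DGRP-535, DGRP-799 and DGRP-805 at 72 h APF and 3.29%, 3.34%, 3.05% and 2.79% in the same strains at 96 h APF. The share of LC4 was thus lower in every cross at 72 h APF than in any at 48 h APF, and that of all 3 types was higher in every cross at 96 h APF than in any at 72 h APF. Between types, LPLC2 was above LPLC1 in every cross at 48 h APF, LPLC2 and LPLC1 were above LC4 at 72 h APF, and LPLC1 was above LPLC2 and LC4 at 96 h APF, while the other pairs overlapped. The share was summed over the members, so no test was made of it, and the groups are described by their ranges. It is relative to all UMIs of the cells, and its order was not that of mitochondrial UMIs per cell. These averaged 500 in LPLC2 and 498 in LPLC1 at 48 h APF. At 72 h APF they averaged 544, 566 and 621 in LPLC2, LPLC1 and LC4, with 19999, 22022 and 28496 UMIs per cell in all. At 96 h APF they averaged 530, 671 and 675.

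**Figure D1:**
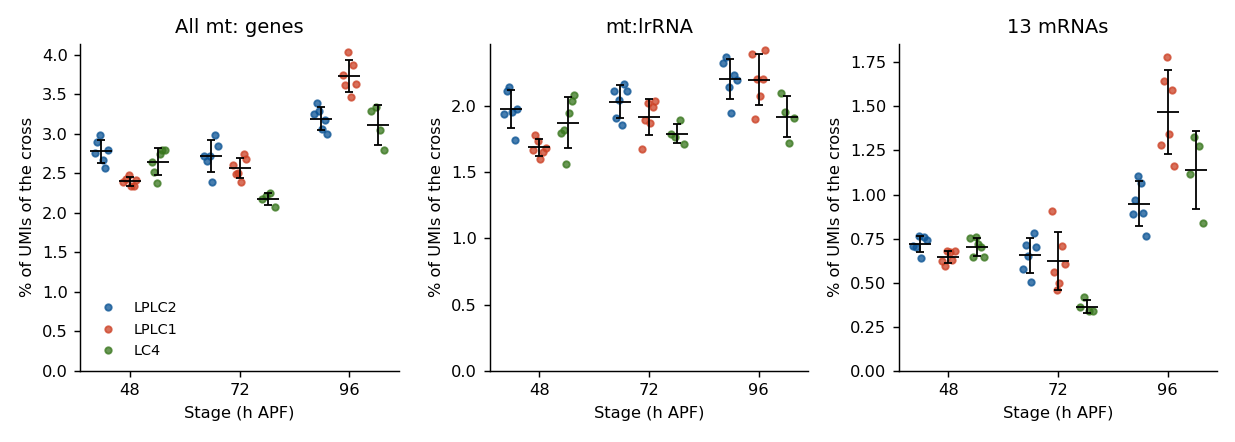
Percentage of all UMIs from the 38 mitochondrial genes, from mt:lrRNA and from the 13 mRNAs (vertical axes, %) in each cross (points) of LPLC2, LPLC1 and LC4 by stage in h APF, with black marks for the mean ± SD (n = 6, and 4 for LC4 at 72 and 96 h APF). mt:lrRNA means stay between 1.68% and 2.20%, while the mRNA mean of LC4 is 1.14% at 96 h APF, against 0.364% at 72 h APF.

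The mRNAs held most of the difference in share between 96 and 72 h APF in each type and between 72 and 48 h APF in LC4. Between LPLC2 and LPLC1 at 48 h APF, mt:lrRNA held 0.292 of the 0.381 percentage points of difference. mt:lrRNA averaged 1.98% ± 0.142, 2.03% ± 0.124 and 2.20% ± 0.148 of UMIs in LPLC2 at 48, 72 and 96 h APF (SD, n = 6 each), 1.68%, 1.91% and 2.20% in LPLC1, and 1.87%, 1.79% and 1.92% in LC4. Its ranges overlapped in all 15 comparisons of types within a stage and of successive stages within a type. The 13 mRNAs held 0.763% to 1.11% (median 0.930%) of UMIs in LPLC2 at 96 h APF, against 0.502% to 0.782% (median 0.676%) at 72 h APF, which overlap narrowly. In LPLC1 they held 1.16% to 1.78% (median 1.47%) at 96 h APF, against 0.457% to 0.906% (median 0.583%) at 72 h APF, with no overlap. In LC4 they held 1.12%, 1.33%, 1.28% and 0.837% at 96 h APF, against 0.361%, 0.417%, 0.339% and 0.338% at 72 h APF, in the strains in the order given above. Here too no cross overlapped. The LC4 mean at 96 h APF was 3.14 times that at 72 h APF, and the mean at 72 h APF was 0.516 times that at 48 h APF, where the range was 0.645% to 0.760%. The large rRNA accordingly took 70.5%, 82.2% and 61.6% of the mitochondrial UMIs of LC4 at 48, 72 and 96 h APF, against 71.05%, 74.8% and 68.9% in LPLC2 and 70.2%, 74.5% and 59.0% in LPLC1.

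Crosses of a stage had been staged in an early and a late window, with early animals on average 2 h older. The direction of each difference in the share that separated 2 groups held within both windows. In LC4, for example, the share averaged 2.19% at 72 h APF against 2.52% at 48 h APF in early crosses, and 2.16% against 2.78% in late crosses. Early and late crosses themselves did not overlap in LPLC2 at 96 h APF (3.25% to 3.39% in early, 3.001% to 3.17% in late crosses), in LC4 at 48 h APF (2.38% to 2.65% in early, 2.74% to 2.80% in late crosses) and in LC4 at 96 h APF (3.29% to 3.34% in early, 2.79% to 3.05% in late crosses). The last 2 run in opposite directions.

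The step from 48 to 72 h APF was tested gene by gene with edgeR's quasi-likelihood test on the UMIs summed in each cross, with Benjamini-Hochberg adjustment over 7007 genes and a threshold of 0.05. Changes are log2 fold changes ± SE, and a gene is said to have risen or fallen only where it passed. Of the 18 genes, 2 rose and 8 fell in LPLC2, where 71.8% of 7007 genes were called in either direction. In LPLC1, 3 rose and 6 fell (63.7% of 7007 genes called in either direction), and in LC4, 0 rose and 14 fell (61.8% of 7007 genes called in either direction). Since most genes of the transcriptome changed between these libraries, the number of calls is less informative than the direction and size of the changes of single genes.

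A fall of mt:srRNA and of mt:ND1 from 48 to 72 h APF was shared by the 3 types. mt:srRNA had 2.87 to 4.18 UMIs per 10000 (median 3.21) in LPLC2 at 72 h APF, against 7.04 to 10.8 (median 8.03) at 48 h APF. In LPLC1 it had 2.84 to 3.90 at 72 h APF, against 5.76 to 9.14 at 48 h APF. In LC4 it had 2.81, 2.36, 2.47 and 2.13 at 72 h APF, against 6.22 to 9.85 at 48 h APF. The log2 changes were −1.26 ± 0.11 in LPLC2 (edgeR adjusted p = 3.04e-14), −0.93 ± 0.11 in LPLC1 and −1.501 ± 0.13 in LC4. mt:ND1, the first mRNA after the rRNA genes on the minus strand, fell by 1.09 ± 0.10, 0.93 ± 0.10 and 1.58 ± 0.12 on the log2 scale in LPLC2, LPLC1 and LC4. Its values in LC4 were 1.68, 1.67, 1.53 and 1.31 UMIs per 10000 at 72 h APF, all below the 4.49 to 5.07 at 48 h APF. Neither transcript overlapped between these stages in any type. mt:lrRNA, the neighbour of both, rose in LPLC1 (0.27 ± 0.07, adjusted p = 4.66e-04), with overlapping ranges of 167 to 204 UMIs per 10000 at 72 h APF, against 160 to 178 at 48 h APF. It changed by 0.09 ± 0.07 in LPLC2 and 0.00 ± 0.08 in LC4.

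The minus-strand subunits of complex I fell as well. mt:ND5 changed by −0.68 ± 0.10, −0.51 ± 0.11 and −1.13 ± 0.12 in LPLC2, LPLC1 and LC4 and mt:ND4 by −0.42 ± 0.12, −0.31 ± 0.12 and −0.90 ± 0.14, all called. The call of mt:ND4 in LPLC1 was lost with strain as a block (adjusted p = 0.0688) and when any of 6 single crosses was left out. mt:ND4L changed by −1.26, −1.004 and −1.27, all called, at no more than 0.0838 UMIs per 10000 in any cross of these stages, and its call in LPLC1 was lost with the block (adjusted p = 0.0779). Of the plus-strand subunits, mt:ND3 fell in all 3 types (−0.66 ± 0.14, −0.63 ± 0.14 and −1.29 ± 0.17). mt:ND2 fell in LPLC2 (−0.37 ± 0.12) and LC4 (−0.64 ± 0.14) and changed by −0.21 ± 0.12 in LPLC1. With total UMIs as the scale the LPLC1 change of mt:ND2 was called a fall (−0.30, edgeR adjusted p = 0.0219).

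The mRNAs of complexes III, IV and V fell between these stages in LC4. mt:CoI, the catalytic subunit of cytochrome c oxidase, had 8.15, 8.64, 7.14 and 6.93 UMIs per 10000 in LC4 at 72 h APF, below the 11.9 to 14.6 of every cross at 48 h APF (−0.72 ± 0.14, adjusted p = 9.19e-06). In LPLC2 its values were 10.7 to 16.4 at 72 h APF, against 13.1 to 15.7 at 48 h APF. In LPLC1 they were 9.35 to 18.5 at 72 h APF, against 11.9 to 13.8 at 48 h APF. Both ranges overlapped, with changes of −0.05 ± 0.12 and 0.07 ± 0.12 that did not pass. mt:ATPase6, part of the proton channel of the ATP synthase, also fell in LC4 (−1.39 ± 0.15). It had 3.94, 4.92, 4.02 and 4.01 UMIs per 10000 at 72 h APF, against 10.8 to 13.3 at 48 h APF. mt:ATPase8 fell by 1.81 in LC4, mt:CoII by 0.73, mt:CoIII by 0.62, mt:Cyt-b by 0.77 and mt:ND6 by 0.87. In LPLC2 and LPLC1 none of these 5 passed except mt:ATPase8 in LPLC2 (−0.60 ± 0.22), a call lost with strain as a block (adjusted p = 0.0580) and without the cross with DGRP-320 at 72 h APF. With the block mt:CoIII (0.28, adjusted p = 0.0320) and mt:ND6 (0.36, adjusted p = 0.0157) were called higher at 72 h APF in LPLC2, and mt:ND6 also with separate fits for each type, with cells over 10% mitochondrial UMIs kept and with cells of 10000 to 50000 UMIs only. In LPLC1 mt:ATPase6 (0.30), mt:CoIII (0.37) and mt:ND6 (0.35) were called higher with cells over 10% kept (edgeR adjusted p = 0.0372, 0.0205 and 0.0358). mt:CoIII was also called there without the filter on low counts (0.30, edgeR adjusted p = 0.0450). No call in LC4 was lost when any cross was left out.

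The difference between types in this step was tested as an interaction, a contrast added after the data had been seen. All types of a stage shared a lane, so a lane effect equal in all types cancels in it. The change from 48 to 72 h APF was higher in LPLC2 than in LC4 for 11 of the 18 genes (32.1% of 7007 genes called in either direction) and higher in LPLC1 than in LC4 for 14 (22.4% of 7007 genes called in either direction). The count of 11 was 6 without the LC4 cross with DGRP-805 at 72 h APF. For mt:ATPase6 the changes differed by 1.30 ± 0.19 between LPLC2 and LC4 and by 1.60 ± 0.19 between LPLC1 and LC4. For mt:ND6 the differences were 1.15 and 1.12 and for mt:CoI 0.66 and 0.79. Between LPLC2 and LPLC1, 0 genes passed by edgeR (16.3% of 7007 genes called in either direction), with 1 at an unadjusted p under 0.05 and 0 by DESeq2. With strain as a block mt:srRNA passed there (−0.33, adjusted p = 0.0321).

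From 72 to 96 h APF every change that passed was a rise. In LPLC2 13 of the 18 genes rose (53.9% of 7007 genes called in either direction), in LPLC1 17 (48.9% of 7007 genes called in either direction) and in LC4 17 (46.2% of 7007 genes called in either direction). The exception in LPLC1 and LC4 was mt:lrRNA, whose changes were −0.07 ± 0.07, 0.00 ± 0.07 and −0.02 ± 0.08 in LPLC2, LPLC1 and LC4. Scaling by total UMIs in place of TMM factors moved the median of all genes by 0.182, 0.201 and 0.121 in this step in LPLC2, LPLC1 and LC4. Under it mt:lrRNA was called higher in LPLC1, and the mean percentage of mt:lrRNA was above that of 72 h APF in all 3 types, so its direction depends on the scaling.

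**Figure D2:**
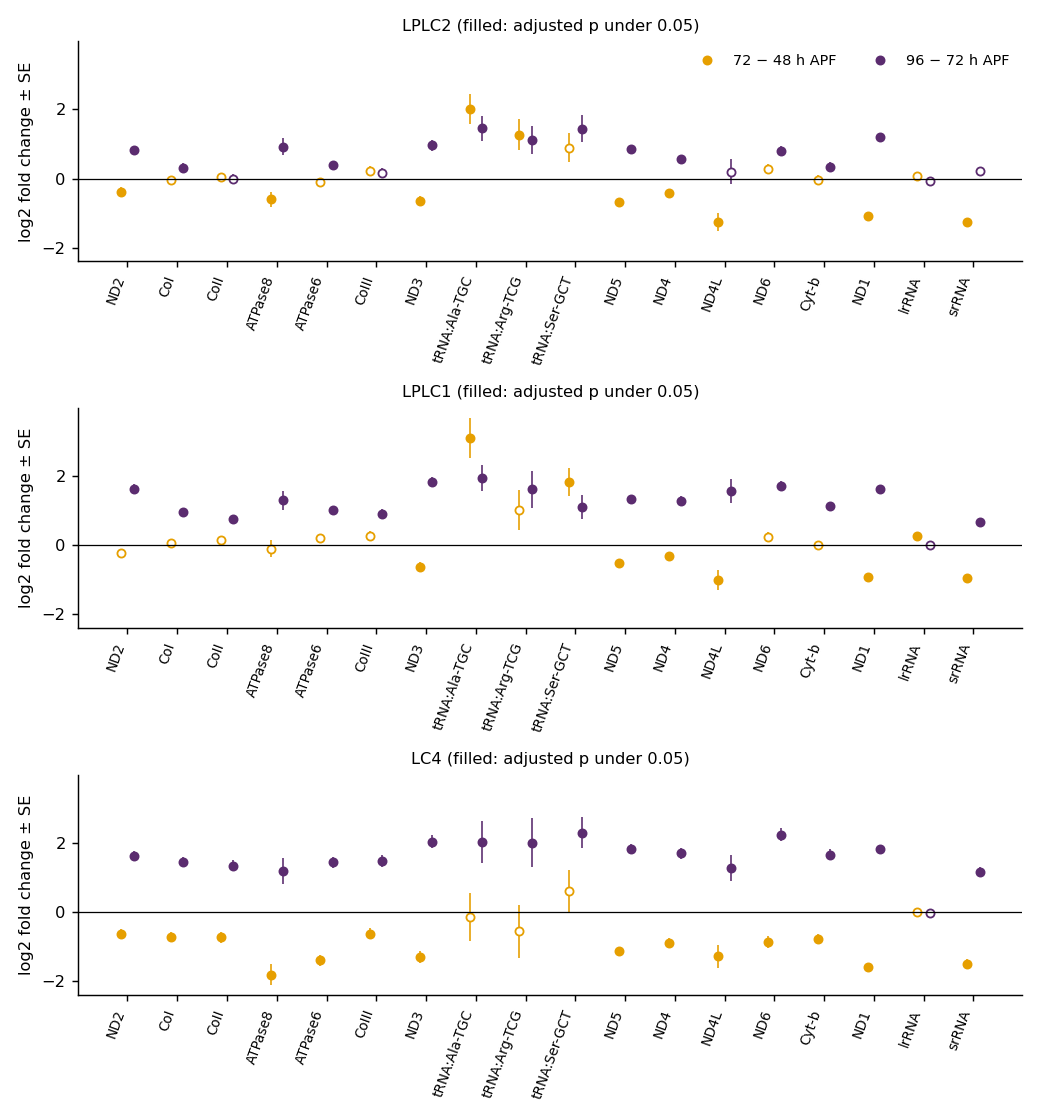
Log2 fold change ± SE (vertical axis) of the 18 tested mitochondrial genes in genome order (horizontal axis) from 48 to 72 h APF (orange) and from 72 to 96 h APF (purple), with a panel for each cell type and filled symbols for an adjusted p under 0.05. mt:ND1 lies at −1.09 and 1.21 in LPLC2, −0.93 and 1.62 in LPLC1 and −1.58 and 1.83 in LC4, while mt:lrRNA stays within 0.27 of 0.

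The transcripts of complex I rose in all 3 types, apart from mt:ND4L in LPLC2 (0.19 ± 0.36). mt:ND1 had 5.33 to 7.52 UMIs per 10000 (median 6.79) in LPLC2 at 96 h APF, against 2.25 to 2.92 (median 2.44) at 72 h APF, and rose by 1.21 ± 0.10 (adjusted p = 7.09e-15). In LPLC1 it had 5.91 to 10.7 at 96 h APF, against 2.18 to 2.58 at 72 h APF, and rose by 1.62 ± 0.10. In LC4 it had 6.88, 5.98, 6.55 and 4.24 at 96 h APF and rose by 1.83 ± 0.13, and 3 of these 4 values lay above the range of 48 h APF. mt:ND6, the subunit encoded on the opposite strand to mt:ND5 and mt:ND4, rose by 0.81 ± 0.14, 1.72 ± 0.15 and 2.25 ± 0.18. It ended above its level at 48 h APF, with 1.91 to 2.95, 3.28 to 5.44 and 2.06 to 3.62 UMIs per 10000 at 96 h APF in LPLC2, LPLC1 and LC4, against 0.915 to 1.17, 1.002 to 1.25 and 0.937 to 1.42 at 48 h APF. mt:ND3 rose by 0.96, 1.84 and 2.05, mt:ND2 by 0.83, 1.64 and 1.63, mt:ND5 by 0.86, 1.34 and 1.83 and mt:ND4 by 0.55, 1.29 and 1.71 in the same order of types.

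The mRNAs of complexes III, IV and V rose in LPLC1 and LC4, and all but mt:CoII and mt:CoIII rose in LPLC2. mt:CoI had 15.6 to 22.5 UMIs per 10000 (median 19.1) in LPLC2 at 96 h APF, 23.8 to 34.2 (median 28.4) in LPLC1 and 23.1, 27.6, 24.6 and 16.2 in LC4. Its changes were 0.32 ± 0.12, 0.97 ± 0.12 and 1.46 ± 0.15. In LPLC2 the call was lost without the cross with DGRP-730 at 96 h APF (adjusted p = 0.0689) and with cells of 10000 to 50000 UMIs only (adjusted p = 0.0521). mt:Cyt-b rose by 0.34, 1.13 and 1.66, and its call in LPLC2 was lost under the same 2 settings (adjusted p = 0.0841 and 0.0756). mt:CoII and mt:CoIII changed by −0.01 ± 0.13 and 0.17 ± 0.14 in LPLC2, while they rose by 0.75 and 0.91 in LPLC1 and by 1.34 and 1.48 in LC4. mt:ATPase6 rose by 0.39, 1.02 and 1.44 and mt:ATPase8 by 0.92, 1.31 and 1.20, a call that in LC4 was lost without the cross with DGRP-799 at 96 h APF (adjusted p = 0.0768). mt:srRNA rose in LPLC1 (0.69 ± 0.12) and LC4 (1.17 ± 0.14) and changed by 0.21 ± 0.11 in LPLC2, where its 4.04 to 4.81 UMIs per 10000 stayed below the 7.04 to 10.8 of 48 h APF. Its change in LPLC2 was called a rise with strain as a block (0.26, adjusted p = 0.00888), with separate fits for each type (adjusted p = 0.0313) and with total UMIs as the scale (0.39, adjusted p = 0.00306).

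The 3 tRNAs moved upward in both steps where they passed, at very low counts. mt:tRNA:Ala-TGC, the tRNA for alanine, rose by 2.02 ± 0.44 in LPLC2 and 3.10 ± 0.58 in LPLC1 from 48 to 72 h APF, and by 1.45, 1.95 and 2.04 in LPLC2, LPLC1 and LC4 from 72 to 96 h APF. mt:tRNA:Ser-GCT rose by 1.83 ± 0.39 in LPLC1 in the first step and by 1.45, 1.11 and 2.30 in LPLC2, LPLC1 and LC4 in the second. mt:tRNA:Arg-TCG rose by 1.27 in LPLC2 in the first step and by 1.12, 1.63 and 2.004 in the second. The LC4 calls of the alanine and arginine tRNAs from 72 to 96 h APF were lost without the cross with DGRP-399 at 96 h APF (adjusted p = 0.0881 and 0.0911), and the LPLC2 call of the arginine tRNA in the same step without the cross with DGRP-320 at 96 h APF (adjusted p = 0.0785).

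Comparisons of cell types within a stage set cells of 1 library against each other. At 48 h APF few of the 18 genes passed in the main fit, which did not pair crosses by strain. In LPLC2 against LPLC1, 3 of the 18 genes were higher and 0 lower (33.7% of 7007 genes called in either direction), namely mt:lrRNA (0.24 ± 0.07), mt:srRNA (0.31 ± 0.11) and mt:Cyt-b (0.33 ± 0.13). mt:lrRNA had 174 to 214 UMIs per 10000 in LPLC2 and 160 to 178 in LPLC1, which overlap. The mt:srRNA call was lost without the LPLC2 cross with DGRP-399 (adjusted p = 0.139), and the mt:Cyt-b call without any of 7 single crosses. In LPLC2 against LC4, 1 gene was lower (52.3% of 7007 genes called in either direction) and in LPLC1 against LC4, 2 were lower (37.4% of 7007 genes called in either direction). mt:ATPase6 was lower in both comparisons, by 0.42 ± 0.13 in LPLC2 (adjusted p = 0.00485) and by 0.58 ± 0.13 in LPLC1 (adjusted p = 2.53e-04). It had 7.82 to 9.77 UMIs per 10000 in LPLC2 and 7.13 to 9.26 in LPLC1, both below the 10.8 to 13.3 of LC4. mt:lrRNA was lower in LPLC1 than in LC4 by 0.21 ± 0.07. With strain as a block the counts of genes called at this stage were 9, 5 and 5 in place of 3, 1 and 2. The share of all genes called with the block is not given, so these counts cannot be set against it.

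At 72 h APF LC4 stood apart. In LPLC2 against LC4, 15 of the 18 genes were higher and 0 lower (58.5% of 7007 genes called in either direction), and in LPLC1 against LC4 likewise 15 and 0 (50.3% of 7007 genes called in either direction). Between LPLC2 and LPLC1 only mt:tRNA:Ser-GCT passed, lower in LPLC2 by 1.54 ± 0.36 (34.8% of 7007 genes called in either direction), and 2 genes passed with strain as a block. mt:ND6 had 0.916 to 1.504 UMIs per 10000 in LPLC2, against 0.546, 0.668, 0.524 and 0.579 in LC4, a difference of 1.04 ± 0.16 (adjusted p = 3.12e-07) with no overlap. mt:CoI was higher by 0.76 ± 0.13 in LPLC2 and by 0.70 ± 0.13 in LPLC1 than in LC4, mt:ATPase6 by 0.88 and 1.02, mt:CoIII by 0.85 and 0.76, mt:Cyt-b by 0.86 and 0.57 and mt:ND1 by 0.63 and 0.57. mt:srRNA was higher by 0.40 and 0.42, while mt:lrRNA differed by 0.11 ± 0.08 and 0.06 ± 0.08. The first of these was called with strain as a block (0.17, adjusted p = 0.00412) and with total UMIs as the scale (0.18, adjusted p = 0.0210). The smallest called difference, that of mt:ND3 in LPLC2 against LC4 (0.38 ± 0.16), was lost without any of 6 single crosses and with cells of 10000 to 50000 UMIs only, and that of mt:ATPase8 (0.94 ± 0.29) without the LC4 cross with DGRP-805 (adjusted p = 0.0518).

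**Figure D3:**
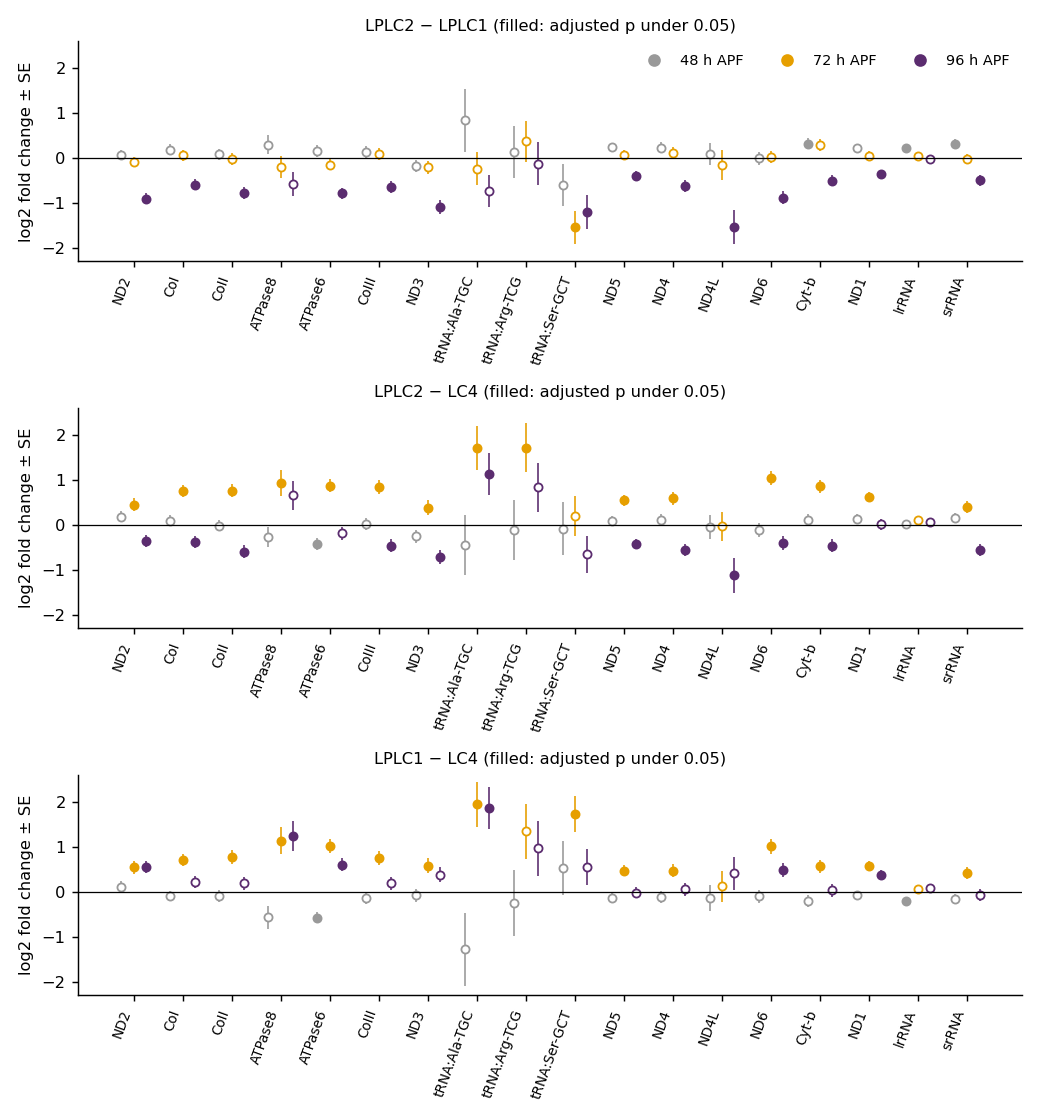
Log2 differences ± SE (vertical axis) of the 18 tested mitochondrial genes in genome order (horizontal axis) between cell types at 48 (grey), 72 (orange) and 96 h APF (purple), with a panel for each pair and filled symbols for an adjusted p under 0.05. The mRNAs of LPLC2 lie above those of LC4 at 72 h APF (mt:CoI 0.76) and below those of LPLC1 at 96 h APF (mt:CoI −0.59).

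At 96 h APF most of the 18 genes were lower in LPLC2 than in LPLC1. In LPLC2 against LPLC1, 0 genes were higher and 14 lower (25.5% of 7007 genes called in either direction). mt:ND3 had 1.46 to 3.22 UMIs per 10000 in LPLC2 and 3.36 to 6.40 in LPLC1, a difference of −1.09 ± 0.15 (adjusted p = 2.51e-08) with no overlap. mt:ND2 was lower by 0.90 ± 0.12, mt:ND6 by 0.88, mt:CoII by 0.78, mt:ATPase6 by 0.78, mt:CoIII by 0.65, mt:CoI by 0.59 and mt:srRNA by 0.49, and mt:lrRNA differed by −0.02 ± 0.07. The share of all 38 genes was 0.536 percentage points lower in LPLC2 than in LPLC1, with no overlap of crosses. In LPLC2 against LC4, 1 gene was higher and 11 were lower (50% of 7007 genes called in either direction), but 8 of these 12 calls were lost without 1 or another cross, and 5 genes passed without the LC4 cross with DGRP-535 and 6 without that with DGRP-799. The calls of mt:CoII (−0.59 ± 0.14), mt:ND3 (−0.70 ± 0.16), mt:ND4 (−0.56 ± 0.14) and mt:srRNA (−0.56 ± 0.13) were not lost without any single cross. With strain as a block mt:ATPase8 was called higher as well (0.77, adjusted p = 0.0250). mt:srRNA had 4.04 to 4.81 UMIs per 10000 in LPLC2, below the 7.98, 5.46, 5.32 and 5.02 of LC4. In LPLC1 against LC4, 10 genes passed with strain as a block, with no share of all genes to set beside them. In the main fit 6 were higher and 0 lower (37.7% of 7007 genes called in either direction). mt:ATPase6 (0.60 ± 0.15), mt:ATPase8 (1.25 ± 0.33) and mt:ND2 (0.55 ± 0.14) were among them, while mt:ND1 (0.37) and mt:ND6 (0.49) were lost without the LC4 cross with DGRP-805 (adjusted p = 0.134 and 0.123). Scaling by total UMIs moved the median of all genes by 0.131 in LPLC2 against LC4 and by 0.112 in LPLC1 against LC4. Under it the calls of mt:CoI, mt:CoIII, mt:Cyt-b, mt:ND2 and mt:ND6 in LPLC2 against LC4 were lost and mt:lrRNA was called higher in both comparisons (0.20 each).

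The change from 48 to 96 h APF was compared between types by the test of the interaction. It was lower in LPLC2 than in LPLC1 for 14 of the 18 genes and higher for 0 (20.8% of 7007 genes called in either direction), and lower in LPLC2 than in LC4 for 7 (37.3% of 7007 genes called in either direction). It was higher in LPLC1 than in LC4 for 6 (26.4% of 7007 genes called in either direction). The 14 genes were 77.8% of the 18, well above the share of all genes. The 7 were 38.9% and the 6 were 33.3%, near the shares of all genes. Leaving out the LC4 crosses with DGRP-535 or DGRP-799 at 96 h APF changed the count of 7 to 4 or 3, and leaving out the LPLC2 cross with DGRP-535 at 96 h APF changed it to 11. Between LPLC2 and LPLC1 the difference was −0.97 for mt:ND2, −0.94 for mt:ATPase6 and −0.78 for mt:CoI.

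Ratios between transcripts do not depend on nuclear UMIs or on scaling. For 8 pairs the mean log2 ratio of the crosses was compared by exact two-sided permutation tests in the same 15 comparisons, with Benjamini-Hochberg adjustment over the 120 tests, of which 46 passed. The tests did not pair crosses by strain. The smallest p these tests allow is 0.00216 with 6 crosses against 6, 0.00476 with 6 against 4 and 0.0286 with 4 against 4, so no comparison of LC4 between 96 and 72 h APF could pass. The ratio of mt:srRNA to mt:lrRNA, the 2 rRNAs of the ribosome, had medians of 0.0398, 0.0162 and 0.0204 in LPLC2 at 48, 72 and 96 h APF, 0.0386, 0.0174 and 0.0282 in LPLC1 and 0.0361, 0.0132 and 0.0295 in LC4. On the log2 scale it was lower at 72 than at 48 h APF, with differences of −1.34 ± 0.13 in LPLC2 and −1.19 ± 0.13 in LPLC1 (exact permutation, adjusted p = 0.0137 each) and −1.502 ± 0.13 in LC4 (adjusted p = 0.0168), with no overlap of crosses. From 72 to 96 h APF it rose in LPLC1 (0.67 ± 0.13), without overlap, and differed by 0.29 ± 0.10 in LPLC2, which did not pass. At 96 h APF it was lower in LPLC2 than in LC4 by 0.60 ± 0.12 and lower than in LPLC1 by 0.46 ± 0.11.

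The ratio of mt:ND1 to mt:lrRNA followed the same course and returned. Its medians were 0.0275, 0.0120 and 0.0296 in LPLC2, 0.0284, 0.0119 and 0.0379 in LPLC1 and 0.0254, 0.00873 and 0.0318 in LC4 at 48, 72 and 96 h APF. The differences were −1.18, −1.19 and −1.58 between 72 and 48 h APF and 1.27, 1.58 and 1.82 between 96 and 72 h APF, the last with an adjusted p of 0.0612 by exact permutation, the lowest the comparison allowed. No crosses overlapped in any of the 6. At 72 h APF the ratio was higher by 0.52 in LPLC2 than in LC4 and by 0.52 in LPLC1 than in LC4 (exact permutation, adjusted p = 0.0168 each).

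**Figure D4:**
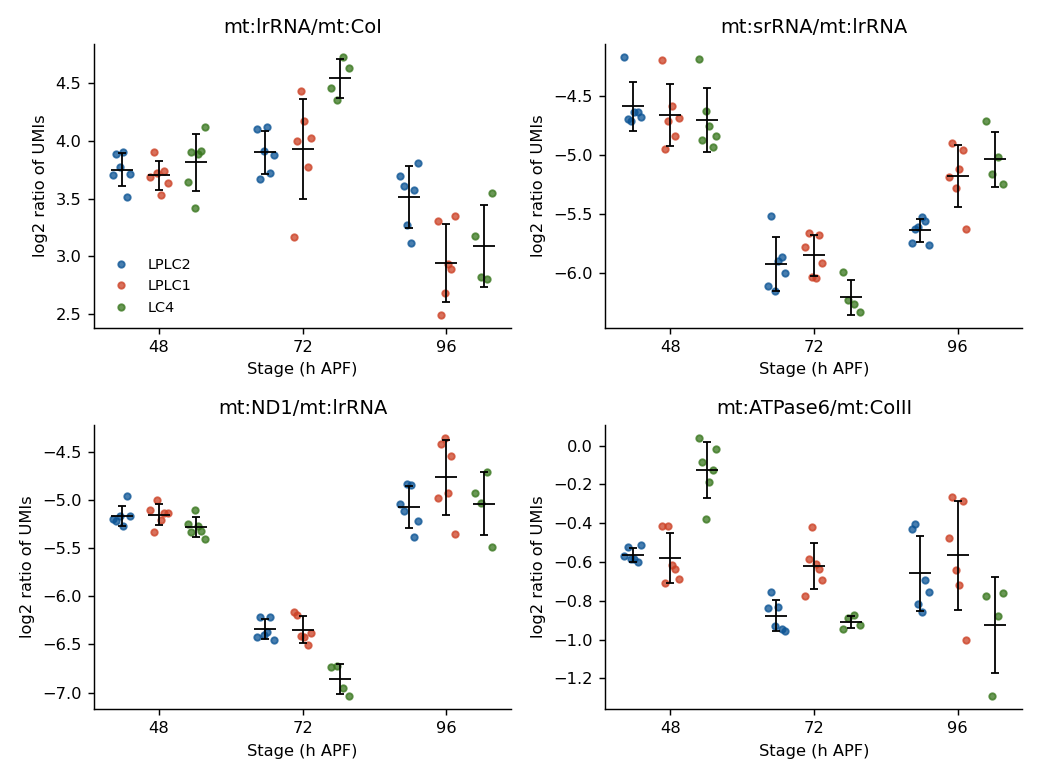
Log2 ratio of 2 transcripts in each cross (points, vertical axes) of LPLC2, LPLC1 and LC4 by stage in h APF, for mt:lrRNA to mt:CoI, mt:srRNA to mt:lrRNA, mt:ND1 to mt:lrRNA and mt:ATPase6 to mt:CoIII. Crosses with mt:srRNA or mt:ND1 over mt:lrRNA at 72 h APF lie below all those at 48 h APF in each type, and mt:ATPase6 over mt:CoIII in LC4 has a median of 0.534 at 72 h APF, against 0.929 at 48 h APF.

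mt:lrRNA relative to mt:CoI had medians of 13.4, 14.9 and 12.1 in LPLC2, 13.02, 16.1 and 7.51 in LPLC1 and 14.9, 23.3 and 8.06 in LC4 at 48, 72 and 96 h APF. In LC4 the 4 crosses with DGRP-399, DGRP-535, DGRP-799 and DGRP-805 had 9.05, 7.07, 6.97 and 11.7 at 96 h APF, against 21.9, 20.4, 26.5 and 24.7 at 72 h APF. All LC4 values at 72 h APF lay above the 10.7 to 17.4 of 48 h APF (0.73 ± 0.13 on the log2 scale, exact permutation, adjusted p = 0.0168) and above the 12.7 to 17.4 of LPLC2 at 72 h APF. At 96 h APF the ratio was higher in LPLC2 than in LPLC1 by 0.57 ± 0.18 (adjusted p = 0.0362 by exact permutation), a call lost without any of 7 single crosses.

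Some ratios between mRNAs also differed. mt:ATPase6 relative to mt:CoIII, 2 genes that adjoin on the plus strand, had medians of 0.670 in LPLC2, 0.649 in LPLC1 and 0.929 in LC4 at 48 h APF, and no LC4 cross overlapped with the others (−0.44 ± 0.06 for LPLC2 and −0.45 ± 0.08 for LPLC1 against LC4, exact permutation, adjusted p = 0.0137 each). At 72 h APF the medians were 0.542, 0.650 and 0.534. The ratio had fallen by 0.78 ± 0.06 in LC4 and by 0.31 ± 0.04 in LPLC2 and differed by −0.04 ± 0.07 in LPLC1. mt:CoIII relative to mt:CoII had medians of 1.08, 1.23 and 1.41 in LPLC2, 1.04, 1.14 and 1.28 in LPLC1 and 1.06, 1.16 and 1.28 in LC4 at 48, 72 and 96 h APF, with both steps passing in LPLC2 (0.17 and 0.18) and LPLC1 (0.12 and 0.17). mt:CoII relative to mt:CoI fell from 72 to 96 h APF in LPLC2 (by 0.33 ± 0.03) and LPLC1 (by 0.21 ± 0.05). mt:Cyt-b relative to mt:CoI stayed within 0.368 to 0.523 in all 50 crosses, and at 72 h APF it was higher in LPLC2 than in LPLC1 by 0.23 ± 0.03 with no overlap. mt:ND4 relative to mt:ND5, 2 neighbours on the minus strand, was higher at 72 than at 48 h APF in LPLC2 (0.25 ± 0.04) and lower at 96 than at 72 h APF (−0.31 ± 0.06).

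Single cells of a cross varied widely in the same quantities. The share of UMIs from the 38 genes lay between 0.0384% and 9.997% among the cells used. Within crosses it was lower in cells with more UMIs in most groups. The median over crosses of Spearman's coefficient was −0.49, −0.20 and −0.29 in LPLC2, −0.45, −0.18 and −0.08 in LPLC1 and −0.46, −0.09 and −0.38 in LC4 at 48, 72 and 96 h APF. The share from mRNAs and that from mt:lrRNA had medians of this coefficient between −0.29 and 0.07 over crosses. Total UMIs are the denominator of the share, so a negative coefficient with UMIs can arise by construction alone. All these coefficients describe cells of 1 library that differ in depth. With dpr13, a gene that is graded within LPLC2, the median coefficient of the mitochondrial share in LPLC2 was 0.12, −0.08 and 0.02.

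Cells differed in how their mitochondrial UMIs divided between mt:lrRNA and the mRNAs. Cells in which mt:lrRNA made up less than 50% of mitochondrial UMIs were 14.8%, 15.9% and 23.2% of LPLC2 cells at 48, 72 and 96 h APF, 15.5%, 16.2% and 33.0% of LPLC1 cells and 13.8%, 11.6% and 26.4% of LC4 cells. At 96 h APF they held 48.3%, 64.2% and 52.5% of the mRNA UMIs of LPLC2, LPLC1 and LC4. These cells were picked for a low part of mt:lrRNA, so a high part of mRNAs in them follows from the choice. Their depth relative to other cells differed between groups, with a median of 11362 UMIs against 30338.5 in LC4 at 72 h APF and of 18337 against 17579 in LPLC1 at 96 h APF. The mRNA share of the median cell, averaged over crosses, was 0.495%, 0.403% and 0.667% in LPLC2, 0.462%, 0.415% and 1.04% in LPLC1 and 0.489%, 0.234% and 0.928% in LC4 at 48, 72 and 96 h APF, and so had the same order of stages as the summed share.

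**Figure D5:**
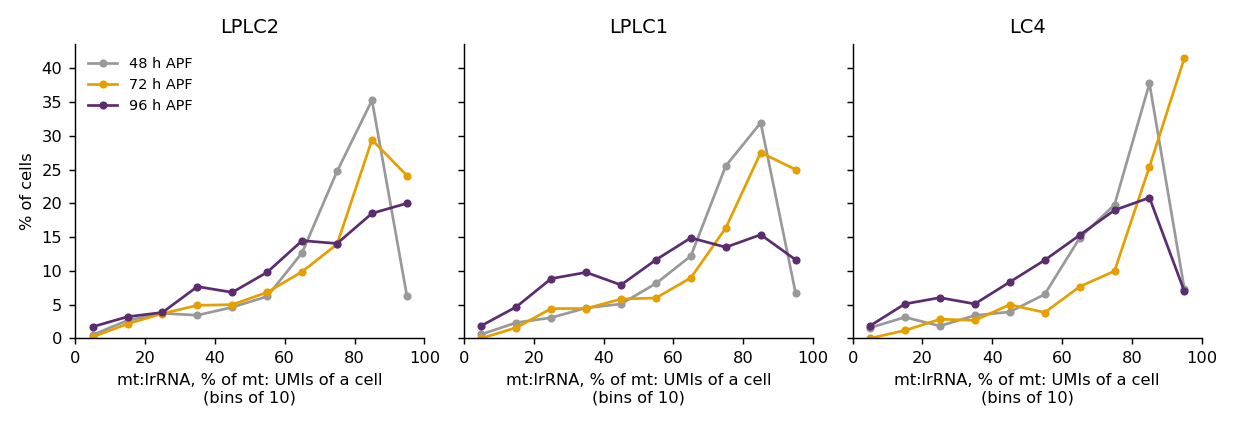
Percentage of cells (vertical axis, %) by the percentage of mitochondrial UMIs from mt:lrRNA (horizontal axis, bins of 10 percentage points), with a panel for each cell type and a line for each stage. In LC4, 41.5% of cells lie in the bin from 90% to 100% at 72 h APF, against 7.29% at 48 h APF and 6.94% at 96 h APF.

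Cells with more than 10% mitochondrial UMIs were set aside. They were 44 of the 5674 annotated cells of the 3 types, with 7, 11 and 4 in LPLC2, 1, 10 and 3 in LPLC1 and 1, 2 and 5 in LC4 at 48, 72 and 96 h APF. Of these cells, 41 had fewer than 10000 UMIs, and their median of 6862.5 UMIs was below the 20591.5 of the other cells. mt:lrRNA took a median of 45.9% of their mitochondrial UMIs (8.81% to 90.8%), against 78.3% in the cells kept. The highest share was 22.1%. Barcodes that were not annotated also had a low part of mt:lrRNA, at far fewer UMIs. Among them the share of mitochondrial UMIs in the sum was 3.42%, 3.90% and 4.18% at 48, 72 and 96 h APF, and the median part of mt:lrRNA in those with at most 10% was 34.4%, 36.8% and 48.7%. Those with at most 10% had medians of only 940, 938 and 1624 UMIs in total, so their composition rests on few mitochondrial UMIs.

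Nuclear genes of oxidative phosphorylation mostly rose from 48 to 72 h APF in LPLC2 and LPLC1, where most mitochondrial transcripts that passed fell, and both sets rose in LPLC2 from 72 to 96 h APF. Of the 80 genes for nuclear subunits of the respiratory complexes, 64 were tested. From 48 to 72 h APF 61 rose and 0 fell in LPLC2 (median log2 change 0.78, against −0.00324 for all genes), 60 rose and 1 fell in LPLC1 (0.63 against −0.01) and 26 rose and 7 fell in LC4 (0.14 against −0.01). Of all 7007 genes, 71.8%, 63.7% and 61.8% were called in these comparisons in LPLC2, LPLC1 and LC4, and the share of the list called in LC4 was below that. ND-30, a subunit of complex I, had 1.94 to 2.58 UMIs per 10000 in LPLC2 at 72 h APF, against 0.615 to 0.916 at 48 h APF, and rose by 1.69 ± 0.12 (edgeR adjusted p = 2.13e-18), while the mitochondrial complex I transcript mt:ND1 fell. From 72 to 96 h APF 55 rose and 0 fell in LPLC2 (median 0.44, against 0.00306 for all genes), 24 rose and 15 fell in LPLC1 (0.08 against −0.02) and 10 rose and 19 fell in LC4 (−0.04 against −0.06), where 53.9%, 48.9% and 46.2% of all genes were called. ox, a subunit of complex III, rose by 1.28 ± 0.09 in LPLC2 and 0.82 ± 0.10 in LPLC1, and ND-MWFE by 1.01, 0.82 and 0.73 in LPLC2, LPLC1 and LC4.

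At 96 h APF LPLC2 differed from LC4 and from LPLC1 in opposite directions in the nuclear subunits and the mitochondrial genes. In the other comparisons given here the called genes of both sets lay mostly on the same side. The mitochondrial genes counted include rRNAs and tRNAs. At 96 h APF 57 of the 64 nuclear genes were higher and 1 lower in LPLC2 than in LC4 (median 0.54, against 0.05 for all genes, of which 50% were called), where 1 mitochondrial gene was higher and 11 lower. The 1 higher gene was mt:tRNA:Ala-TGC, and 8 of these 12 calls were lost without 1 or another cross. In LPLC2 against LPLC1, 26 nuclear genes were higher and 1 lower (0.18 against 0.05, with 25.5% of all genes called). In that comparison 14 mitochondrial genes were lower. At 48 h APF 58 nuclear genes were lower and 0 higher in LPLC2 than in LC4 (−0.63 against −0.01, 52.3% of all genes called). Of the mitochondrial genes 1 was lower and 0 higher. In LPLC1 against LC4 at 96 h APF 49 nuclear genes were higher and 3 lower (37.7% of all genes called). There 6 mitochondrial genes were higher and 0 lower. At 72 h APF the counts were 39 and 1 (50.3% of all genes called), against 15 and 0. In LPLC2 against LC4 at 72 h APF 16 nuclear genes were higher and 4 lower. The 58.5% of all genes called was above the share of the list, and 15 mitochondrial genes were higher and 0 lower.

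Of the 73 genes for proteins of the mitochondrial ribosome, which holds both mitochondrial rRNAs, 72 were tested. From 72 to 96 h APF 53 rose and 2 fell in LPLC2 (median 0.51, against 0.00306 for all genes), 19 rose and 6 fell in LPLC1 (0.05 against −0.02) and 0 rose and 47 fell in LC4 (−0.65 against −0.06). Of all genes, 53.9%, 48.9% and 46.2% were called in LPLC2, LPLC1 and LC4, and the share of the list called in LPLC1 was below that. mRpS18A had 0.0211 to 0.119 UMIs per 10000 in LC4 at 96 h APF, against 0.262 to 0.327 at 72 h APF, and fell by 2.08 ± 0.29. At 96 h APF 62 of the 72 were higher in LPLC2 than in LC4 (50% of all genes called) and 57 in LPLC1 than in LC4 (37.7% of all genes called), with 0 lower in either. From 48 to 72 h APF 28 of the 72 rose and 18 fell in LPLC2 (median 0.09, against −0.00324 for all genes). Of all genes 71.8% were called in that step, and the share of the list was below that. Among the list, mRpL28 rose by 1.76 ± 0.11 and mRpL15 fell by 1.18 ± 0.13.

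Of 25 nuclear genes for the replication, transcription and processing of mitochondrial DNA and RNA, 17 were tested. mtSSB, which binds single-stranded mitochondrial DNA during replication, fell from 48 to 72 h APF by 3.54 ± 0.32, 2.69 ± 0.35 and 2.45 ± 0.42 in LPLC2, LPLC1 and LC4. In LPLC2 it had 0.00246 to 0.0259 UMIs per 10000 at 72 h APF, against 0.0892 to 0.167 at 48 h APF. mldr fell by 3.16, 3.12 and 2.51 and mTerf3, a member of the mitochondrial transcription termination factor family, rose by 0.91, 0.79 and 0.81. From 72 to 96 h APF 8 rose and 1 fell in LPLC2, 6 and 1 in LPLC1 and 2 and 1 in LC4, in no type a larger share than the 53.9%, 48.9% and 46.2% of all genes. mtRNApol, the RNA polymerase of mitochondria, rose in LPLC2 (0.87 ± 0.20), where it had 0.110 to 0.199 UMIs per 10000 at 96 h APF, against 0.0474 to 0.0915 at 72 h APF. Suv3, an RNA helicase that degrades and processes mitochondrial RNA, rose in LPLC2 (0.87 ± 0.16) and LPLC1 (0.80 ± 0.21). scu, which takes part in the processing of mitochondrial tRNAs, fell by 2.16 ± 0.21 in LC4.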

How the data were processed

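The authors counted UMIs per gene and barcode with Cell Ranger against a FlyBase annotation of the dm6 genome, and the deposited counts are whole numbers without normalization. The deposited percent of mitochondrial UMIs and the number of UMIs of each barcode were recomputed from the counts and matched for all 3914, 4317 and 1325 barcodes at 48, 72 and 96 h APF, within 1e-06 for the percent. The authors assigned cells to crosses from third-chromosome variants with demuxlet, which also removes doublets between strains, and annotated cell types after clustering with Seurat 5.0.1. No doublet caller was run here. The methods state limits of 10000 and 50000 UMIs and of 10% mitochondrial UMIs. The annotated cells nevertheless range from 5003 to 49322 UMIs and include cells over 10%.

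Annotated LPLC2, LPLC1 and LC4 cells with at most 10% mitochondrial UMIs were summed in each cross with at least 10 cells. All 50 sums entered 1 fit with a mean for each of the 9 groups in edgeR 4.0.16 (filterByExpr, TMM factors, quasi-likelihood test, Benjamini-Hochberg adjustment over 7007 genes) under R 4.3.3 with limma 3.58.1. Ratios were computed in crosses with at least 10 UMIs of both transcripts and tested by exact permutation in Python 3.11.15 with scipy 1.17.1. Gene positions came from the Ensembl annotation of the same assembly. Crosses of the same DGRP strain share a paternal chromosome. Their deviations from the group means correlated between 0.0105 and 0.326 (median 0.129), over 0.1 in 54 of 76 pairs of crosses of the same strain. The mean over other strains was −0.0896 to 0.00113. The main fit had no term for strain, and a strain block, which uses this pairing, was run as an alternative. The permutation tests of ratios were unpaired and had no such alternative.

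Alternatives were DESeq2's size factors and Wald test (1.42.0), total UMIs, scaling by nuclear genes, no filter on low counts, separate fits, the strain block, other sets of cells and leaving out each cross. Chosen after the data had been seen were leaving out crosses under 20 cells, the interaction of 72 with 48 h APF and the strain block for the interactions. The genes and lists were chosen with earlier results of these data known. Named were all mRNAs and rRNAs, tRNAs that passed the filter, and from each nuclear list up to 3 genes per direction with the largest change in a comparison.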

Additional observations from a re-analysis of the deposited data

Results flagged for a closer look

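In groups of 4 or 6 crosses, 5 of 99 sets of values held a cross whose gap to the nearest other was above Dixon's 95% critical value, about the 1 in 20 that chance gives. The sets share crosses and transcripts, so they are not independent. The cross with DGRP-399 was high in mt:srRNA relative to mt:lrRNA at 48 h APF in LPLC2 (0.0557) and in LC4 (0.0550). Without a flag, DGRP-399 was also highest in LPLC1 at 48 h APF (0.0548). It was highest in LPLC2, LPLC1 and LC4 at 72 h APF (0.0219, 0.0198 and 0.0157) and in LPLC1 and LC4 at 96 h APF (0.0336 and 0.0382). In LPLC2 at 96 h APF it was not the highest (0.0203). The cause was not tested. The others were mt:ND1 relative to mt:lrRNA in LPLC2 at 48 h APF with DGRP-799 (0.0320), mt:Cyt-b relative to mt:CoI in LPLC2 at 96 h APF with DGRP-799 (0.424) and mt:CoII relative to mt:CoI in LPLC1 at 72 h APF with DGRP-320 (1.01).

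The change from 48 to 96 h APF differed between cell types for single genes by edgeR's interaction test (log2, Benjamini-Hochberg adjusted over all genes). In LPLC2 and LPLC1 77.8% of the 18 genes were called, against 20.8% of all genes. The shares were 38.9% against 37.3% in LPLC2 and LC4 and 33.3% against 26.4% in LPLC1 and LC4, near those of all genes. In LPLC2 minus LPLC1 the difference was −0.97 for mt:ND2, −0.78 for mt:CoI, −0.86 for mt:CoII, −0.94 for mt:ATPase6, −0.79 for mt:CoIII, −0.92 for mt:ND3, −0.64 for mt:ND5 and −1.63 for mt:ND4L. It was −0.88 for mt:ND6, −0.82 for mt:Cyt-b, −0.58 for mt:ND1, −0.26 for mt:lrRNA, −0.80 for mt:srRNA and −0.85 for mt:ND4. The call of mt:lrRNA was lost without any of 15 single crosses. In LPLC2 minus LC4 it was −0.54 for mt:ND2, −0.48 for mt:CoI, −0.58 for mt:CoII, −0.52 for mt:ND5, −0.58 for mt:Cyt-b, −0.72 for mt:srRNA and −0.67 for mt:ND4, of which the first 5 were lost without at least 1 cross. In LPLC1 minus LC4 it was 1.82 for mt:ATPase8, 1.18 for mt:ATPase6, 3.14 for mt:tRNA:Ala-TGC, 0.59 for mt:ND6, 0.45 for mt:ND1 and 0.30 for mt:lrRNA, of which the last 4 were lost without at least 1 cross.

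Cells that were annotated as none of the 3 types entered no comparison. At 72 h APF those with at most 10% mitochondrial UMIs had 3.13% of their UMIs from the 38 genes. That was above the share in each of the 3 types at that stage. At 48 and 96 h APF their share was 2.54% and 3.49%, between the lowest and highest of the 3 types.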

How the results depend on the processing

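No result changed direction with a call under any alternative. Counting the 13 mRNAs over nuclear genes and those mRNAs gave differences of 0.0773 percentage points in LPLC2 minus LPLC1 and −0.0608 in LPLC1 minus LC4 at 48 h APF, 0.298 in LPLC2 minus LC4 and 0.264 in LPLC1 minus LC4 at 72 h APF, −0.194 and 0.339 in the same pairs at 96 h APF, and −0.0233 from 48 to 72 h APF and 0.867 from 72 to 96 h APF in LPLC1. The mean over cells in place of the sum gave 0.520 and 0.363 in LPLC1 minus LC4 at 72 and 96 h APF, and −0.778 and 1.24 in LC4 from 48 to 72 and from 72 to 96 h APF. The cause was not tested.

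With strain as a replicate block, a fit that uses the pairing of crosses by strain, 9, 5 and 5 of the 18 genes were called at 48 h APF in LPLC2 against LPLC1, LPLC2 against LC4 and LPLC1 against LC4, 2 in LPLC2 against LPLC1 at 72 h APF and 10 in LPLC1 against LC4 at 96 h APF. For the interactions the block was added after the data had been seen, in 1 fit of all groups. It called 1 gene in place of 0 in LPLC2 and LPLC1 for 72 with 48 h APF, and over the 6 interactions 6 values of single genes gained a call and 0 lost one. Separate fits called 7, 2 and 4 genes at 48 h APF in the same order of pairs. The share of all genes called is not given for these alternative fits, so their counts cannot be set against it. Total UMIs as the scale called 2 in LPLC2 against LPLC1 at 72 h APF. Without a filter on low counts 1 was called in LPLC1 against LC4 at 48 h APF and 3 in their interaction of 96 with 48 h APF. Among the nuclear lists, total UMIs gave 17 in place of 7 respiratory genes in the interaction of 72 with 48 h APF of LPLC2 and LPLC1, and 1 in place of 2 DNA and RNA factors there and in that of LPLC1 and LC4.

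Leaving out each cross gave 1 to 4 calls in LPLC2 against LPLC1 at 48 h APF, 2 to 3 in LPLC1 against LC4 at 48 h APF, 1 to 2 in LPLC2 against LPLC1 at 72 h APF, 5 to 13 in LPLC2 against LC4 and 4 to 7 in LPLC1 against LC4 at 96 h APF. In the interactions it gave 3 to 11 (LPLC2 and LC4) and 4 to 7 (LPLC1 and LC4) for 96 with 48 h APF, and 0 to 1 (LPLC2 and LPLC1) and 6 to 12 (LPLC2 and LC4) for 72 with 48 h APF. Ratio tests passing were 43 to 50. The difference in the mitochondrial share ranged from −0.0313 to 0.151 in LPLC2 minus LC4 at 96 h APF and from −0.113 to 0.00631 between 72 and 48 h APF in LPLC2. Lone calls of 1 were reached in LPLC2 against LPLC1 at 48 h APF without the LPLC1 crosses with DGRP-535 or DGRP-799. Of 5436 values of single genes without 1 cross, 5234 kept their call or lack of one, 142 lost it and 60 gained one.

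Crosses with few cells, 12 at the fewest, limit the precision of low genes such as mt:ND4L, mt:ATPase8 and the tRNAs. Stage and lane, and cell type and the mitochondrial genome of the driver line, cannot be told apart, and p-values measure the spread between crosses of 1 lane. The 3′ ends counted need not reflect the whole transcript.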
